A study of Rattus norvegicus with 43 samples.

Results

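The 10 smooth muscle contractile genes Acta2, Myh11, Cnn1, Mylk, Tagln, Smtn, Cald1, Des, Csrp1 and Pdlim7 were followed in A7r5 cells, a smooth muscle line established from the aorta of rat embryos. Each gene was read from a probe set that the array annotation assigned to that symbol alone, and where a gene had several, from the one with the highest mean over 43 arrays. All 10 had such a probe set, of 14217 genes named in this way, and all 10 lay above the filter on low values (a log2 value above 4 in at least 4 arrays) on every array. The filter left 9095 genes for the tests.

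The cells had been kept in a custom-made DMEM with folic acid at 2.5 ng/ml, termed deficient in the labels, at 10 ng/ml, termed sufficient, or at 100 ng/ml, termed excess. They were harvested after 7, 14 or 21 days. At day 7 there were 4 deficient, 5 sufficient and 4 excess arrays, and at days 14 and 21 there were 5 of each. All groups shared the 1 cell line, and by their labels differed in medium and time. The labels also carry a running number of unstated meaning. Some numbers repeat: day 14 sufficient replicates 2, 3 and 5 all carry 22, and day 14 excess replicate 6 and day 21 sufficient replicate 6 both carry 50. Arrays numbered above 45 were not spread evenly: they were 0, 1 and 1 of the deficient, sufficient and excess arrays at day 7, 1, 1 and 3 at day 14, and 0, 2 and 2 at day 21. The labels do not state whether arrays of a group came from separate cultures, so a p-value here reflects only how these arrays varied, and that variation may be technical. In an extract of a whole culture, fewer cells that express a gene and less RNA per cell cannot be told apart.

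Smooth muscle shortens when calcium-bound calmodulin switches on myosin light chain kinase, the product of Mylk, which phosphorylates myosin so that the heavy chain made from Myh11 can pull on filaments of alpha-actin, the product of Acta2. Calponin (Cnn1), transgelin (Tagln), caldesmon (Cald1) and smoothelin (Smtn) bind those filaments, desmin (Des) forms the intermediate filaments, and Csrp1 and Pdlim7 encode LIM domain proteins of the actin cytoskeleton. Many of these genes are transcribed through serum response factor and its partner myocardin, which act at CArG boxes. Their messages fall when vascular smooth muscle cells leave the contractile state.

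RefSeq promoters of the GRCr8 assembly, 250 bases before to 50 bases after a start site, covered 8 of the 10 genes in 9 entries, with 2 for Cald1 and none for Myh11 and Tagln. A CArG box is CC, then 6 bases that are each A or T, then GG, and since its reverse complement has the same form, a search of 1 strand covers both. None of the 9 entries held it, and 1.64% of all 33469 promoters of this length did. With 1 of the 6 inner bases allowed to be C or G, Acta2 held 2 matches, from -134 to -125 and from -84 to -75 before its start. At least 1 such match was present in 9.42% of all promoters and in no other entry of the contractile genes. A match is a run of letters and not a measured binding site. The promoter of Acta2 is printed with its matches in capitals. Those of Smtn, Pdlim7, Csrp1 and Des follow, since these genes shifted with Acta2 between arrays of day 14, and then that of Cnn1, which had the smallest adjusted p for excess medium at day 21.

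Acta2, chr1:241172454-241172753, minus strand: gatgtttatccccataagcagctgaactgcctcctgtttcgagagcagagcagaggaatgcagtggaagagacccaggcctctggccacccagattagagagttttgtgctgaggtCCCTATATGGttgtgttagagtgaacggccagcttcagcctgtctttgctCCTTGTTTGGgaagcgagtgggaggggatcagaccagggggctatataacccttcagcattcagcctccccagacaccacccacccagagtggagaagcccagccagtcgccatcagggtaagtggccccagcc
Smtn, chr14:82644465-82644764, minus strand: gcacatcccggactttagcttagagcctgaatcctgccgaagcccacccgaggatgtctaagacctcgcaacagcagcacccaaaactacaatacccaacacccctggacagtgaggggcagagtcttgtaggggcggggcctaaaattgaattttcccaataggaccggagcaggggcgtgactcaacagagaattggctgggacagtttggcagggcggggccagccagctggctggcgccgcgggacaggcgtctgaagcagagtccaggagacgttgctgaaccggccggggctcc
Pdlim7, chr17:9129558-9129857, plus strand: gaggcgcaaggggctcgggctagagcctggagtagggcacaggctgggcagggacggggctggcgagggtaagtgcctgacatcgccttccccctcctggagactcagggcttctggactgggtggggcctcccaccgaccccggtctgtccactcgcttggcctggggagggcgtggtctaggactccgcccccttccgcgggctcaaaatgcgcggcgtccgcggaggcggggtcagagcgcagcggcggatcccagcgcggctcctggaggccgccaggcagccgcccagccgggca
Csrp1, chr13:49709678-49709977, plus strand: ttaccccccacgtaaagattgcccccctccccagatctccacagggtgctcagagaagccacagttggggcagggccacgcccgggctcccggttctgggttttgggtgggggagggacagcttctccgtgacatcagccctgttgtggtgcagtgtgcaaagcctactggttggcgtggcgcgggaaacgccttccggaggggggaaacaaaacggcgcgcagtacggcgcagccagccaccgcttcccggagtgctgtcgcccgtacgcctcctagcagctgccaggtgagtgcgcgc
Des, chr9:84299376-84299675, plus strand: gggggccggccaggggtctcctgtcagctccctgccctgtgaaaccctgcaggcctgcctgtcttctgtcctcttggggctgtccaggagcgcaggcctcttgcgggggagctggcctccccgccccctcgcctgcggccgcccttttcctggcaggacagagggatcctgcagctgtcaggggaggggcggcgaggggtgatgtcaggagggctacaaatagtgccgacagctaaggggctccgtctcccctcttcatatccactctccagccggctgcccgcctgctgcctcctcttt
Cnn1, chr8:28908187-28908486, plus strand: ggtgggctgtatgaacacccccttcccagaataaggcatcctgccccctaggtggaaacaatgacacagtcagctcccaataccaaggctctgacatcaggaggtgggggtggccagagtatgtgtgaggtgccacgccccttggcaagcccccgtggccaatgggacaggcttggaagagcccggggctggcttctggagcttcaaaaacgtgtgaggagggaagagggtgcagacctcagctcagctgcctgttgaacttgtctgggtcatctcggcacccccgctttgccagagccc

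Arrays of the same group did not agree on every contractile gene. Acta2 lay between 13.38 and 13.86 on 25 arrays and between 14.26 and 14.57 on the other 18, with no array between these ranges. The 18 upper arrays were 4 of 4 deficient, 4 of 5 sufficient and 3 of 4 excess arrays at day 7, 3 of 5, 3 of 5 and 0 of 5 at day 14, and 0 of 5, 1 of 5 and 0 of 5 at day 21. The 5′ probe set of the Thr control, an RNA added to each sample before labelling, fell into separate ranges as well, at or below 10.83 on 20 arrays and at or above 11.25 on 23. Arrays with the higher control numbered 0 of 4, 1 of 5 and 1 of 4 at day 7 (deficient, sufficient, excess), 2, 2 and 3 of 5 at day 14, and 5, 5 and 4 of 5 at day 21. The control was thus higher at later days, and values of genes that move with it are given below with the control taken into account.

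At day 14 both ranges of the control occurred in every medium. In sufficient medium, Acta2 was between 14.37 and 14.57 on the 3 arrays with the lower control and between 13.68 and 13.74 on the 2 with the higher. In deficient medium it was between 14.39 and 14.47 on 3 arrays and between 13.63 and 13.66 on 2. In excess medium it was low on both kinds of array, between 13.38 and 13.70 on 2 and between 13.65 and 13.83 on 3. Pdlim7 showed the same arrangement, with 11.53 to 11.68 against 10.94 to 11.20 in sufficient medium and 10.84 to 11.01 against 10.70 to 10.75 in excess medium. Smtn went from 9.12 to 9.44 down to 8.05 to 8.16 in sufficient medium, and in excess medium lay at 8.72 on both arrays with the lower control and between 8.44 and 8.83 on the others.

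The SD within groups, pooled over the 9 groups, was 0.43 for Smtn, 0.28 for Acta2, 0.26 for Pdlim7 and 0.23 for Des. It was 0.17 for Csrp1 and Myh11, 0.11 for Mylk, 0.07 for Cnn1, 0.06 for Tagln and 0.05 for Cald1. Deviations from the mean of arrays of the same group and the same range of the control were set against each other, over 21 arrays with the higher and 19 with the lower control. Between Acta2 and Pdlim7, Pearson's r was 0.72 with the higher control (Spearman's rho 0.322) and 0.725 with the lower (rho 0.616). Between Acta2 and Des it was 0.705 (rho 0.373) and -0.402 (rho -0.0158), and between Acta2 and Csrp1 0.513 (rho 0.26) and 0.183 (rho 0.356). Between Acta2 and Smtn it was 0.83 (rho 0.452) and 0.336 (rho 0.398), between Smtn and Pdlim7 0.814 (rho 0.571) and 0.372 (rho 0.384), and between Csrp1 and Pdlim7 0.792 (rho 0.756) and 0.309 (rho 0.177). Acta2 and Pdlim7 thus had like values of r in both sets, and the other 5 pairs had a higher r with the higher control. By rho, however, Acta2 had lower values with both Pdlim7 and Csrp1 in the higher set. That set includes sufficient replicate 1 of day 21, which stood apart from its group for Acta2, Smtn, Csrp1 and Pdlim7. These are descriptions over arrays that share a scale and a labelling kit, and no p is given.

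The beta-actin control, read at both ends of its message, gives a sign of RNA length. Its 3′ minus 5′ difference was above 2 on the log2 scale on 2 sufficient arrays of day 7 and on 3 excess arrays each of days 14 and 21, and on no other array. Excess medium and a larger difference therefore moved together at the later days. The excess arrays of day 14 with the lower Thr control, replicates 3 and 4, read 2.79 and 2.37. Sufficient replicates 1, 2 and 3 of that day, those with the lower Thr control, read 1.77, 1.82 and 1.71. Comparisons of excess with sufficient medium at day 14 within the lower Thr control therefore also differ in the beta-actin control. The endothelial marker Pecam1, the leukocyte and macrophage markers Ptprc and Cd68, and the fibroblast markers Dcn and Pdgfra read at most 3.17 on any array and missed the filter. The mean over 7 endothelial markers stayed between 2.68 and 3.04 on all arrays. Of these 7, Vwf alone passed the filter, and it read at most 4.26 on any array. Vwf was lower in excess than in sufficient medium at day 14 (-0.25 on the log2 scale). The mean over 8 macrophage markers stayed between 2.78 and 3.08. Of these 8, Cd14 alone passed the filter, and it was higher in excess than in sufficient medium at day 21 (0.64 on the log2 scale). The 11 fibroblast markers averaged between 7.67 and 8.28, with excess arrays of day 21 between 8.14 and 8.28 and sufficient arrays of that day between 7.99 and 8.12. Of these 11, 7 were tested, and at day 21 excess medium had 2 higher and 2 lower, where 24.4% and 19.3% of all genes were higher and lower. Lum, the matrix proteoglycan lumican, was higher by 2.88 ± 0.20, from a group mean of 2.42 in sufficient to 5.30 in excess medium. Lum enters the mean of the list, so the higher mean of excess arrays does not describe the list as a whole. Pdpn was lower by -0.69 ± 0.09 and S100a4 higher by 0.32 ± 0.05 (limma, adjusted p = 1.19e-14, 4.87e-08 and 5.49e-07). Thy1, Col1a1, Col1a2 and Postn, also on the list, had group means from 9.86 to 14.48, so the list held genes that A7r5 cells express. Its part in the differences between media was not tested.

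**Figure D1:**
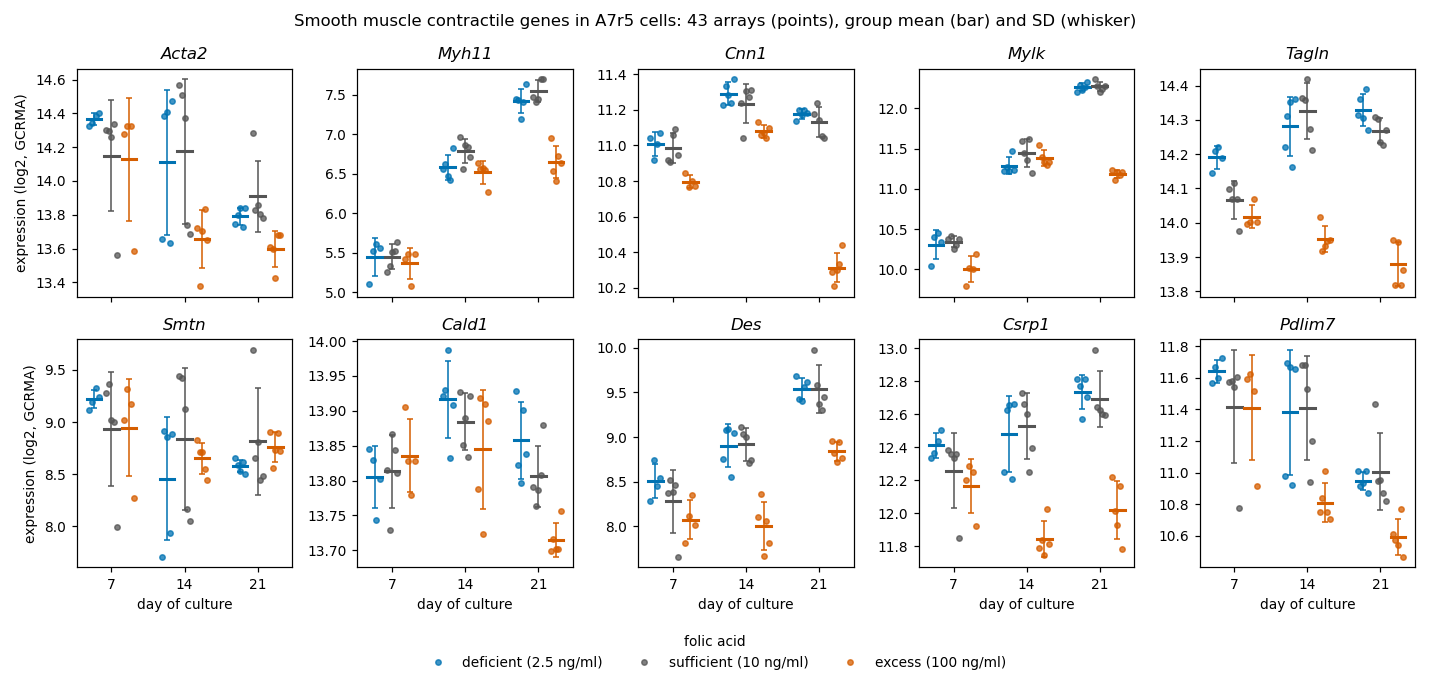
Expression (log2, GCRMA) of the 10 contractile genes by day of culture. Points are the 43 arrays, bars group means and whiskers SDs, with blue for 2.5, grey for 10 and orange for 100 ng/ml folic acid; each panel has its own scale. Mylk and Myh11 lie higher at day 21 than at day 7 in every medium and lower in excess than in the other media at day 21, Acta2, Smtn and Pdlim7 show single arrays far from the rest of their group, and Cnn1 at day 21 separates excess arrays (10.21 to 10.44) from all others.

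Time in culture moved most contractile genes, as it did most of all genes tested. In sufficient medium 6 of the 10 rose from day 7 to day 21 and 1 fell (limma, adjusted p below 0.05), where 29.6% of all genes tested rose and 33.1% fell. The median difference of the 10 was 0.17 on the log2 scale and that of all genes -0.02. In deficient medium 6 rose and 3 fell (30.7% and 34.1% of all genes), with a median of 0.15. In excess medium 3 rose and 5 fell (34.6% and 25.4%), with a median of -0.14. Counted in both directions, 7, 9 and 8 of the 10 passed in sufficient, deficient and excess medium, against 62.6%, 64.8% and 60% of all genes. Acta2, Smtn and Pdlim7 made up the 3 that fell in deficient medium, and the direction of all 3 turned when the poly-A control RNAs were a covariate, as given with each gene below.

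Contractile genes were lower in excess medium, mostly from day 14 on. Against sufficient medium, 1 of 10 was lower at day 7 and 0 were higher, where 2.1% of all genes were lower and 0.275% higher. At day 14, 7 of 10 were lower and 0 higher, against 18.8% and 22.3% of all genes. Within arrays of the lower Thr control the day 14 count was 6 of 10, and within those of the higher control 3 of 10. Both excess arrays of the lower control had a beta-actin 3′ minus 5′ difference above 2, and no sufficient array of that day did. At day 21, 7 of 10 were lower and 0 higher, against 19.3% and 24.4%. For 9 of 10, all but Smtn, every excess array lay below every sufficient array. The share of all genes separated in this way was not counted, so this number has no baseline. Within arrays of the higher control, the day 21 count was 8 of 10. With the running number as a covariate, the counts of days 14 and 21 were 6 and 7. The shares of all genes above belong to the fit of all arrays and are no baseline for the counts within control ranges or with the covariate. The median of the 10 was -0.07, -0.32 and -0.54 at the 3 days, beside medians of all genes of -0.06, 0.01 and 0.03.

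Deficient medium changed no contractile gene past the threshold at any day. Against sufficient medium, 0 of 10 passed at day 7, where 0% of all genes did, 0 of 10 at day 14 (0.088%) and 0 of 10 at day 21 (0.781%) with limma. At an unadjusted p below 0.05, 1 gene passed at day 7 (Tagln), 1 at day 14 (Mylk) and 0 at day 21. Over all genes the number at an unadjusted p below 0.05 was 551, 787 and 1118. The change of the deficiency effect from day 7 to day 21 passed for 0 of 10 as well (0.044% of all genes, 984 genes at an unadjusted p below 0.05, 0 of them contractile).

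Deficient against excess medium shares its excess arrays with the comparison against sufficient medium. At day 7, 3 of 10 genes were higher in deficient medium and 0 lower (4.04% and 0.968% of all genes). At day 14, 6 were higher and 0 lower (16.9% and 23.4%), and at day 21, 7 were higher and 0 lower (22.4% and 28.5%). The 3 of day 7 were Cnn1, Mylk and Tagln, at log2 differences of 0.21 ± 0.06, 0.31 ± 0.08 and 0.17 ± 0.05 (SE), and this count fell to 0 when deficient replicate 5 or 6 was left out and to 1 without deficient replicate 2 or without excess replicate 1 or 3.

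Mylk had the largest excess effect of the 10 genes at day 21. The kinase read 12.36, 12.21, 12.24, 12.27 and 12.28 on the sufficient arrays of day 21 and 11.23, 11.11, 11.21, 11.17 and 11.20 on the excess arrays. All excess arrays were lower by about the same amount, and the groups were far apart relative to their SDs of 0.06 and 0.05 (n = 5 each). The log2 difference was -1.09 ± 0.07 (SE), or 2.12-fold lower (limma, adjusted p = 4.32e-15). Deficient arrays of that day, at 12.19, 12.29, 12.23, 12.26 and 12.33, overlapped the sufficient ones, with a difference of -0.01 ± 0.07 (adjusted p = 0.97).

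The lower Mylk of excess medium did not build up evenly over time. At day 7 the excess arrays read 9.79, 10.19, 10.02 and 10.01 and the sufficient arrays 10.37, 10.41, 10.38, 10.25 and 10.31, again without overlap. The difference was -0.34 ± 0.08 (limma, adjusted p = 0.0139), and it missed the threshold without excess replicate 1 (adjusted p = 0.11). At day 14 the excess arrays, at 11.54, 11.33, 11.40, 11.33 and 11.29, lay among the sufficient ones, at 11.59, 11.44, 11.62, 11.36 and 11.19. That difference was -0.06 ± 0.07 (adjusted p = 0.52). The excess effect differed between day 21 and day 7 by -0.74 ± 0.11 (limma interaction, adjusted p = 1.69e-06) and between day 14 and day 7 by 0.28 ± 0.11 (adjusted p = 0.0648).

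Mylk was higher at day 21 than at day 7 in all media. From day 7 to day 21 its mean went from 10.34 ± 0.07 to 12.27 ± 0.06 (SD, n = 5) in sufficient medium, a log2 difference of 1.93 ± 0.07 (SE) and 3.80-fold (limma, adjusted p = 1.55e-23). The rise was 1.95 ± 0.08 in deficient medium (adjusted p = 7.51e-23) and 1.18 ± 0.08 in excess medium (adjusted p = 5.57e-16). In excess medium the day 21 arrays, at 11.11 to 11.23, lay below those of day 14, at 11.29 to 11.54, a step that was not tested. The lowest mean of the 9 groups was that of excess medium at day 7 (10.00 ± 0.16), followed by deficient and sufficient medium at day 7 (10.31 ± 0.18 and 10.34 ± 0.07). Excess medium at day 21 (11.18 ± 0.05) came next, ahead of deficient, excess and sufficient medium at day 14 (11.29 ± 0.10, 11.38 ± 0.10 and 11.44 ± 0.17). Neighbours in this order overlapped within each day, and the day 21 excess arrays overlapped the deficient and sufficient arrays of day 14. A second Mylk probe set gave -1.73 ± 0.28 for excess at day 21 (limma over all probe sets, adjusted p = 3.94e-06), but also with -0.95 ± 0.28 at day 14 (adjusted p = 0.00664), where the main probe set did not pass. Over time, day 21 against day 7, it rose by 2.16 ± 0.28 in sufficient and 2.30 ± 0.30 in deficient medium (limma over all probe sets, adjusted p = 2.18e-08 and 1.76e-08), but its difference in excess medium was 0.17 ± 0.30 (adjusted p = 0.643).

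Myh11, the smooth muscle myosin heavy chain, followed a like course. Its sufficient arrays of day 21 read 7.47, 7.45, 7.69, 7.41 and 7.70, and its excess arrays 6.95, 6.53, 6.41, 6.73 and 6.63. The groups did not overlap, and the difference was -0.89 ± 0.11 (1.86-fold lower; limma, adjusted p = 9.02e-09). At day 14 the excess arrays lay at 6.64, 6.27, 6.56, 6.57 and 6.54 and the sufficient ones at 6.97, 6.56, 6.84, 6.87 and 6.72. These overlapped, at -0.27 ± 0.11 (adjusted p = 0.0388), and the call was lost in 9 of 19 alternative settings and in 5 of 10 leave-one-out fits, those without sufficient replicate 1, 3 or 4 or excess replicate 3 or 6 (highest adjusted p = 0.13). At day 7 the difference was -0.09 ± 0.11 (adjusted p = 0.753).

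The rise of Myh11 with time was the largest of the 10 genes. In sufficient medium its mean went from 5.45 ± 0.15 at day 7 to 6.79 ± 0.16 at day 14 and 7.55 ± 0.14 at day 21 (SD, n = 5), and the day 21 difference was 2.09 ± 0.11 (4.27-fold; limma, adjusted p = 1.24e-19). Deficient medium gave 1.97 ± 0.11 and excess medium 1.28 ± 0.11 (adjusted p = 4.75e-18 and 1.95e-12). The excess effect at day 21 differed from that at day 7 by -0.81 ± 0.16 (adjusted p = 0.000157). Mylk and Myh11 kept their excess call at day 21 in all 17 alternative settings that could be fitted and in all 10 leave-one-out fits.

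**Figure D2:**
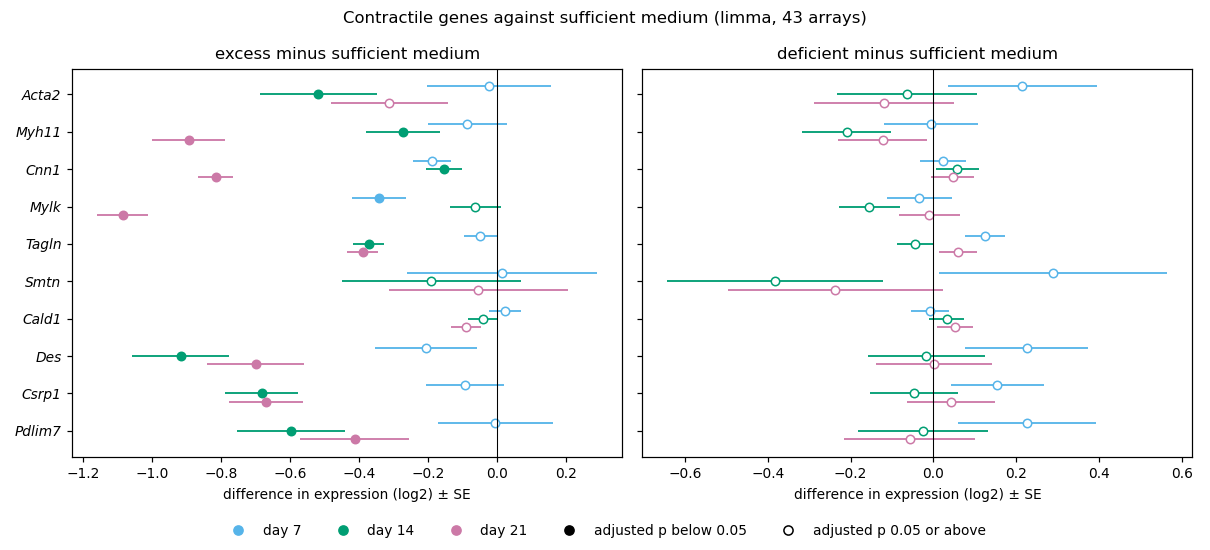
Differences in expression (log2) of excess minus sufficient medium (left) and of deficient minus sufficient medium (right) for the 10 genes at days 7, 14 and 21. Points are limma estimates from all 43 arrays, bars are ± SE, and filled points have an adjusted p below 0.05. Excess medium has 1 filled point at day 7 and 7 each at days 14 and 21, all below 0, from -0.15 for Cnn1 to -1.09 for Mylk, and deficient medium has 0.

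Cnn1, the calponin that slows actin-activated myosin, had the smallest adjusted p of the 10 genes for excess medium at day 21. On the sufficient arrays of day 21 it read 11.17, 11.14, 11.06, 11.24 and 11.04, and on the excess arrays 10.29, 10.21, 10.30, 10.33 and 10.44. Every excess array was lower than every other array of the series. The difference was -0.82 ± 0.05 (1.76-fold lower; limma, adjusted p = 5.97e-16), and deficient medium differed from sufficient by 0.05 ± 0.05 (adjusted p = 0.78).

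At the earlier days Cnn1 differed little. Excess was lower by -0.15 ± 0.05 at day 14 (limma, adjusted p = 0.0165), with overlapping groups, and the difference missed the threshold without sufficient replicate 3 (adjusted p = 0.0504) and in 7 of 19 alternative settings (highest adjusted p = 0.319). At day 7 it was -0.19 ± 0.06 (adjusted p = 0.0585), with excess arrays at 10.85, 10.77, 10.77 and 10.80 below sufficient arrays at 10.92, 10.91, 10.95, 11.06 and 11.09. With time Cnn1 rose by 0.15 ± 0.05 in sufficient medium (adjusted p = 0.0146, lost without day 21 replicate 2) and by 0.17 ± 0.06 in deficient medium (adjusted p = 0.00764). In excess medium it fell by 0.48 on the log2 scale (SE 0.06, adjusted p = 1.25e-09), so that the excess effect at day 21 differed from that at day 7 by -0.63 ± 0.08 (adjusted p = 4.67e-08).

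Tagln, the actin-binding transgelin, was lower in excess medium by much the same amount at both later days. At day 14 its excess arrays read 14.02, 13.95, 13.92, 13.93 and 13.95 against 14.36, 14.36, 14.27, 14.42 and 14.21 in sufficient medium. At day 21 they read 13.95, 13.82, 13.94, 13.82 and 13.86 against 14.31, 14.24, 14.23, 14.30 and 14.27. The groups did not overlap on either day, and the differences were -0.37 ± 0.05 and -0.39 ± 0.05 (1.29-fold and 1.31-fold lower; limma, adjusted p = 2.29e-08 and 4.7e-09). At day 7 the difference was -0.05 ± 0.05 (adjusted p = 0.648), and the excess effect differed from that of day 7 by -0.32 ± 0.07 at day 14 and by -0.34 ± 0.07 at day 21 (adjusted p = 0.000533 and 0.000158).

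In deficient medium at day 7 Tagln read 14.15, 14.21, 14.22 and 14.19 against 13.97 to 14.12, with a median of 14.07, on the 5 sufficient arrays. All deficient arrays lay above all sufficient arrays. The difference was 0.13 ± 0.05 and did not pass over all genes (unadjusted p = 0.0129; limma, adjusted p = 0.801). With time Tagln rose in sufficient medium (0.20 ± 0.05, adjusted p = 0.000186) and in deficient medium (0.14 ± 0.05, adjusted p = 0.0122) and fell in excess medium by 0.14 (SE 0.05, adjusted p = 0.0123).

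Acta2, the alpha-actin of the thin filament, had an excess effect that depended on which arrays were compared. At day 14 the excess arrays read 13.72, 13.65, 13.38, 13.70 and 13.83, and the sufficient arrays 14.57, 14.51, 13.74, 14.37 and 13.68. The 2 low sufficient arrays lay within the excess range. The difference was -0.52 ± 0.17 (1.43-fold lower; limma, adjusted p = 0.0136). Among arrays with the lower Thr control it was -0.94 ± 0.08 (2 excess and 3 sufficient arrays, adjusted p = 3.42e-07), and among arrays with the higher control 0.02 ± 0.11 (3 and 2 arrays, adjusted p = 0.918). The 2 excess arrays of the lower control also had a beta-actin difference above 2, so medium and RNA length cannot be told apart there. With the higher control, 1 of the 3 excess arrays had such a difference, of 2.80. With the mean of the poly-A controls as a covariate it was -0.33 ± 0.14 (adjusted p = 0.0558). The call was also lost without sufficient replicate 1 (adjusted p = 0.06) or replicate 2.

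At day 21 Acta2 read 13.61, 13.60, 13.42, 13.68 and 13.68 in excess medium and 14.28, 13.86, 13.80, 13.83 and 13.78 in sufficient medium. Every excess array was lower, and sufficient replicate 1 stood well above the others. The difference was -0.31 ± 0.17 and did not pass in the model of all arrays (limma, adjusted p = 0.134). Within arrays of the higher control, which leave out excess replicate 3, it was -0.27 ± 0.08 (adjusted p = 0.0135). The fall of Acta2 from day 7 to day 21 was 0.57 in deficient medium (SE 0.18, adjusted p = 0.00544) and 0.53 in excess medium (SE 0.18, adjusted p = 0.0109). The poly-A covariate turned these falls into rises of 0.19 ± 0.21 and 0.10 ± 0.19 (adjusted p = 0.475 and 0.691).

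Smtn, whose smoothelin marks contractile smooth muscle, passed in no comparison of media over all arrays. The excess differences were 0.01 ± 0.28, -0.19 ± 0.26 and -0.05 ± 0.26 at days 7, 14 and 21 (limma, adjusted p = 0.988, 0.585 and 0.885). At day 14 the excess difference was -0.61 ± 0.12 among arrays with the lower control (2 excess and 3 sufficient arrays, adjusted p = 0.000665) and 0.50 ± 0.24 among those with the higher control (3 and 2 arrays, adjusted p = 0.177). Deficient against excess medium at day 14 was -0.19 ± 0.26 over all arrays (adjusted p = 0.584) and passed with the poly-A covariate (-0.54 ± 0.19, adjusted p = 0.0244) and among arrays with the higher control (-0.79 ± 0.24, adjusted p = 0.0296). The SD was largest in sufficient and deficient medium at day 14 (0.68 and 0.59), where 2 of 5 arrays each, those with the higher control, lay apart at 7.71 to 8.16. At the other days single arrays stood apart: sufficient replicate 6 of day 7 read 7.99 beside 9.00 to 9.37 on its partners, and sufficient replicate 1 of day 21 read 9.70 beside 8.45 to 8.80. Its fall with time in deficient medium was 0.64 (SE 0.28, limma, adjusted p = 0.0399). The call was lost in 8 of 9 leave-one-out fits, the exception being that without day 21 replicate 2. With the poly-A covariate the difference reversed to a rise of 0.67 ± 0.29 (adjusted p = 0.0539). A second Smtn probe set was lower in excess medium at day 14 by -0.93 ± 0.28 (limma over all probe sets, adjusted p = 0.00731), where the main one did not pass.

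Cald1, the caldesmon that holds actin back from myosin, moved least. Its main probe set stayed between 13.70 and 13.99 on all 43 arrays. Excess arrays of day 21, at 13.70, 13.72, 13.70, 13.70 and 13.76, lay at or below the lowest sufficient array, at 13.79, 13.79, 13.81, 13.76 and 13.88 in that group. The difference was -0.09 ± 0.04 (limma, adjusted p = 0.0868), and against deficient medium it passed at 0.14 ± 0.04 (adjusted p = 0.00582, deficient higher). A second Cald1 probe set was lower in excess medium by -0.76 ± 0.15 at day 14 and by -0.49 ± 0.15 at day 21 (limma over all probe sets, adjusted p = 0.000122 and 0.00835). The probe sets of Cald1 and Smtn thus differed in their calls for excess medium.

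Des, whose desmin filaments tie the contractile apparatus together, had the largest excess effect of day 14. Its excess arrays read 8.10, 7.82, 8.37, 7.67 and 8.06, and its sufficient arrays 9.12, 9.03, 8.70, 9.00 and 8.74. The groups did not overlap, and the difference was -0.92 ± 0.14 (1.89-fold lower; limma, adjusted p = 2.21e-06). It was -1.03 ± 0.17 among arrays with the lower control and -0.73 ± 0.15 among those with the higher (adjusted p = 0.000145 and 0.00215).

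At day 21 Des read 8.95, 8.82, 8.72, 8.95 and 8.76 in excess medium and 9.98, 9.37, 9.31, 9.58 and 9.45 in sufficient medium, again apart, at -0.70 ± 0.14 (adjusted p = 9.59e-05). The excess effect at day 14 differed from that at day 7 by -0.71 ± 0.20 (limma, adjusted p = 0.0133), and that at day 21 by -0.49 ± 0.20 (adjusted p = 0.0729). From day 7 to day 21 Des rose by 1.26 ± 0.14 in sufficient, 1.03 ± 0.15 in deficient and 0.77 ± 0.15 in excess medium (adjusted p = 5.55e-10, 1.46e-07 and 3.33e-05).

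Csrp1, a LIM protein that bundles actin with alpha-actinin, was lower in excess medium at both later days. At day 14 it read 11.79, 11.82, 11.84, 11.75 and 12.03 in excess medium against 12.73, 12.66, 12.25, 12.60 and 12.39 in sufficient medium. At day 21 it read 12.22, 12.02, 11.93, 12.16 and 11.79 against 12.99, 12.63, 12.60, 12.65 and 12.59. Neither pair of groups overlapped, and the differences were -0.68 ± 0.11 and -0.67 ± 0.11 (1.60-fold and 1.59-fold lower; limma, adjusted p = 3.03e-06 and 2.51e-06). Among arrays with the lower control the day 14 difference was -0.87 ± 0.07, and among those with the higher control -0.44 ± 0.13 (adjusted p = 8.82e-08 and 0.0267). The effect differed from that at day 7 by -0.59 ± 0.16 at day 14 and -0.58 ± 0.16 at day 21 (adjusted p = 0.00673 and 0.0052).

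Pdlim7, which encodes the LIM protein enigma, was lower in excess medium at day 14 by -0.60 ± 0.16 and at day 21 by -0.41 ± 0.16 (limma, adjusted p = 0.00263 and 0.0314). At day 14 the excess arrays read 10.75, 10.70, 10.84, 11.01 and 10.75, and the sufficient arrays 11.68, 11.68, 10.94, 11.53 and 11.20. Sufficient replicate 4, at 10.94, lay below the highest excess array. Within arrays of the lower control the day 14 difference was -0.71 ± 0.07 and within those of the higher control -0.33 ± 0.13 (adjusted p = 1.85e-06 and 0.105). At day 21 the call was lost without sufficient replicate 1, which read 11.43 beside 10.82 to 10.96 on its partners (-0.31, adjusted p = 0.126), and also without excess replicate 2, 3 or 5. A second Pdlim7 probe set, above 4 on 12 arrays only, differed by 0.12 ± 0.12 and 0.07 ± 0.12 at these days (limma over all probe sets, adjusted p = 0.453 and 0.671), and at day 14 it was lower in deficient than in excess medium (-0.34 ± 0.12, adjusted p = 0.0209).

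Pdlim7 was also the gene that fell with time in every medium, by 0.41 in sufficient, 0.69 in deficient and 0.82 in excess medium (SE 0.16, 0.17 and 0.17; limma, adjusted p = 0.0228, 0.00044 and 6.41e-05). The call in sufficient medium was lost in 6 of 10 leave-one-out fits, those without day 7 replicate 1, 2, 4 or 5 or day 21 replicate 4 or 6. With the poly-A controls as a covariate the differences were rises of 0.13 ± 0.12 in sufficient and 0.19 ± 0.15 in deficient medium (adjusted p = 0.368 and 0.325). In excess medium the difference stayed a fall, at -0.09 ± 0.14 (adjusted p = 0.617). Time and the control RNA moved together, and their parts in the fall cannot be told apart.

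**Figure D3:**
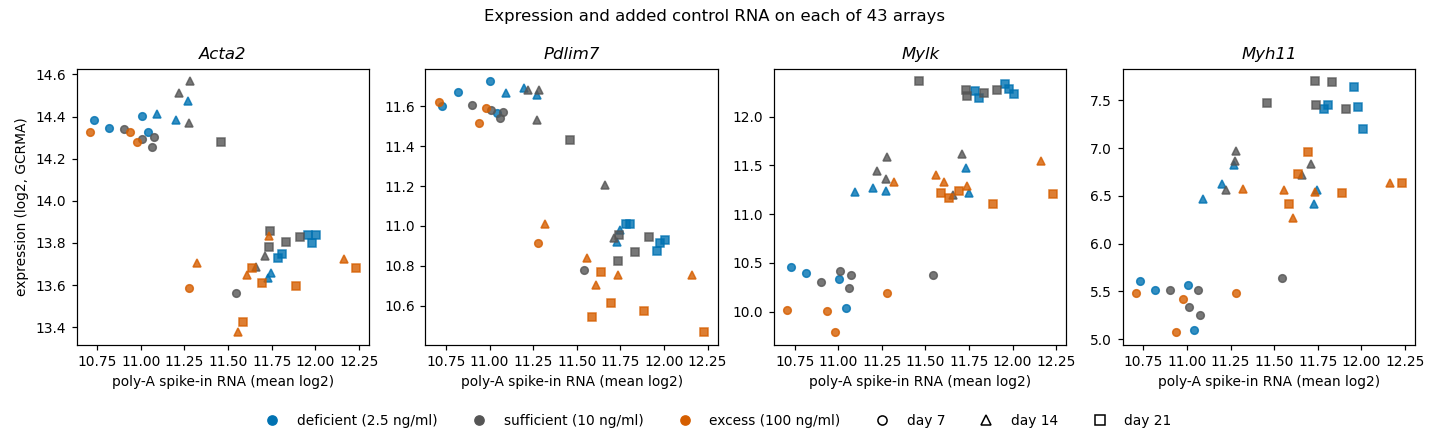
Expression (log2, GCRMA) of Acta2, Pdlim7, Mylk and Myh11 against the mean log2 value of the poly-A control RNAs on each of 43 arrays. Colour gives folic acid (blue 2.5, grey 10, orange 100 ng/ml) and shape the day (circle 7, triangle 14, square 21). Acta2 lies at or above 14.26 on 18 arrays, all with a control mean of at most 11.46, and Mylk and Myh11 form clusters by day, with the excess arrays of day 21 below the others of that day.

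The interaction of excess medium with time was tested for all 10 genes. From day 7 to day 14 the excess effect became lower for 3 (Tagln, Des and Csrp1) and higher for 0, where 4.67% of all genes became lower and 13.8% higher. From day 7 to day 21 it became lower for 5 (Myh11, Cnn1, Mylk, Tagln and Csrp1) and higher for 0 (7.53% and 17% of all genes). Tagln and Csrp1 were in both sets, Des had its larger excess effect at day 14, and Mylk, Myh11 and Cnn1 had theirs at day 21. Without the arrays above the beta-actin difference of 2, which leaves 2 of 5 excess arrays at days 14 and 21, the excess calls were 5 of 10 and 6 of 10. The share of all genes called in that fit is not given, so these counts have no baseline here.

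Of 31 other contractile and actin filament genes listed, 26 were tested. In excess against sufficient medium 13 were lower and 2 higher at day 14 (18.8% and 22.3% of all genes), and 13 lower and 0 higher at day 21 (19.3% and 24.4%), with a median of -0.23 at day 21. The largest at day 14 were Pdlim5 (-0.99 ± 0.25), Zyx, the focal adhesion protein zyxin (-0.71 ± 0.20), and Kcnmb1 (-0.67 ± 0.15; limma, adjusted p = 0.00203, 0.00482 and 0.000533). The largest at day 21 were Pdlim5, an adaptor of the Z line (-0.92 ± 0.25), Kcnmb1, the beta subunit of the calcium-activated potassium channel (-0.78 ± 0.15), and Itga8, an integrin of smooth muscle (-0.78 ± 0.12; limma, adjusted p = 0.00333, 4.88e-05 and 1.05e-06). Actg2, the gamma-actin of smooth muscle, was lower by -0.21 ± 0.06 at day 21 and by -0.23 ± 0.06 at day 14 (adjusted p = 0.00231 and 0.00126). With time in sufficient medium 13 rose and 5 fell (29.6% and 33.1% of all genes), led by Pln, the phospholamban that restrains the calcium pump (4.24 ± 0.13), Itga8 (2.44 ± 0.12) and Csrp2 (-1.95 ± 0.14; adjusted p = 2.78e-26, 2.34e-20 and 6.09e-15). In deficient medium 0 of 26 passed against sufficient at any day.

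Of 25 listed regulators of contractile gene transcription, 18 were tested. At day 21, 5 were lower and 5 higher in excess medium, with a median of 0.01, where 19.3% and 24.4% of all genes were lower and higher. Myocd, the myocardin that partners serum response factor, was lower by -0.79 ± 0.11, from 9.33 in sufficient to 8.54 in excess medium (limma, adjusted p = 1.23e-07). Klf5, a factor of proliferating smooth muscle, was higher by 0.64 ± 0.14, and Tgfb2, a ligand that promotes contractile genes, was lower by -0.62 ± 0.08 (adjusted p = 0.000271 and 1.56e-07). At day 14, 5 of the 18 were lower and 5 higher in excess medium (18.8% and 22.3% of all genes). Myocd differed by -0.05 ± 0.11 (limma, adjusted p = 0.723), and Srf, the CArG-binding factor itself, was lower by -0.30 ± 0.06 (adjusted p = 0.000115). Group means moved further from sufficient to excess medium for Tgfb1 (7.69 to 6.28), Jag1 (10.35 to 11.04) and Smad7 (9.51 to 9.04), whose tests are not given here. At day 21 Srf differed by -0.10 ± 0.06 (adjusted p = 0.196). So Srf passed at day 14 and Myocd at day 21, and whether their effects differ between those days was not tested.

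Skeletal and cardiac muscle markers, of which A7r5 cells carried many, moved as well. Of 24 listed, 15 were tested, and 10 were lower and 2 higher in excess medium at day 14 (18.8% and 22.3% of all genes), and 11 lower and 2 higher at day 21 (19.3% and 24.4%), with medians of -0.74 and -1.17. The largest at day 21 were Tnnt1, a troponin of slow skeletal muscle (-3.14 ± 0.15), Acta1, the skeletal alpha-actin (-2.79 ± 0.11), and Myh2, a skeletal myosin heavy chain (-2.70 ± 0.17; limma, adjusted p = 5.57e-20, 1.31e-22 and 5.97e-16). At day 14 they were Tnnt1 (-2.10 ± 0.15), Cox6a2 (-1.98 ± 0.10) and Acta1 (-1.58 ± 0.11; adjusted p = 1.83e-14, 2.7e-18 and 1.37e-14). The mean over the 23 on the array lay between 7.06 and 7.17 on sufficient arrays of day 21 and between 6.27 and 6.38 on excess arrays. In sufficient medium 13 of the 15 rose and 1 fell from day 7 to day 21 (29.6% and 33.1% of all genes), with a median of 1.51, led by Tnnt1 (4.18 ± 0.15), Myl4 (4.10 ± 0.09) and Myl1 (4.03 ± 0.12; adjusted p = 1.09e-24, 3.83e-32 and 2.69e-26). Des and Myh11 changed alongside these markers, whose part in the result was not tested.

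For each contractile gene the gene with the most similar values over the 43 arrays, outside the 10, was found by Pearson correlation. Mylk was most like Fuca1 (r = 0.98), Myh11 most like Myom1 (0.97), Acta2 most like Spryd3 (0.96), Pdlim7 most like Pfkl (0.94) and Csrp1 most like Ccnd3 (0.94). Des and Eno2 stood at 0.93, Tagln and G6pc3 at 0.93, Cnn1 and Aif1l at 0.90, Smtn and Nfic at 0.90, and Cald1 and Vldlr at 0.74. All arrays share groups and a scale, so these values describe likeness only.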

How the data were processed

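Total RNA of A7r5 cells had been hybridised to 43 Affymetrix Rat230_2 arrays. The deposited values are log2 expression per probe set, and the submitters' processing notes name GCRMA and limma without versions. They ran from 0.84 to 15.0, with array medians of 3.66 to 3.72, and were not normalized again. Arrays have no read depth, and precision is set by how many there were. Of 31099 probe sets, 20826 carried 1 gene symbol, 436 several and 9780 none, and 57 controls were left out.

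One probe set per gene, the one with the highest mean, was kept, and the filter left 9095 of 14217 genes. limma 3.58.1 in R 4.3.3 (lmFit and eBayes) fitted 9 group means to all 43 arrays, with 15 comparisons, Benjamini-Hochberg adjustment over all genes tested and a threshold of 0.05. Differences are on the log2 scale and tests are two-sided. Genes were named by a rule: all 10 contractile genes, up to 3 of each list with the largest change past the threshold in the comparison described, and Srf, Myocd and Actg2. Named outside the rule, after their values were seen, were the markers near background, Thy1, Col1a1, Col1a2 and Postn, and Tgfb1, Jag1 and Smad7. The contractile genes and the lists were chosen with earlier results of these data known. The scripts were tested on simulated data.

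Alternatives covered normalization, filter, weights, variance model, samples in the fit, the running number (above 45 or not), replicate block, RNA quality and each array left out. Splits by the control RNAs and a beta-actin limit of 2 were chosen after seeing the data. Replicate numbers were not used to pair the arrays: same-numbered arrays of a day deviated from their group means with median correlations of 0.0198, -0.0777 and -0.124 at days 7, 14 and 21. The highest among same-numbered arrays were 0.59, 0.506 and 0.0904, and among differently numbered arrays 0.236, 0.683 and 0.35. These values cannot show whether some arrays were paired. Promoters came from RefSeq (GRCr8), and figures were drawn with matplotlib 3.10.9 in Python 3.11.15.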

Additional observations from a re-analysis of the deposited data

Results flagged for a closer look

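Of 90 combinations of gene and group, 16 held an array whose gap to its nearest partner passed Dixon's limit. The genes were read on the same arrays and several moved together, so the combinations are not independent. The nominal 1 in 20 for a single combination is therefore no baseline for this count. Sufficient replicate 6 of day 7 gave 5 of the 16 and sufficient replicate 1 of day 21 gave 4. Sufficient replicate 6 of day 7 was the lowest of its group for Acta2 (13.56), Smtn (7.99), Des (7.66), Csrp1 (11.85) and Pdlim7 (10.78). Sufficient replicate 1 of day 21 was the highest of its group for Acta2 (14.28), Smtn (9.70), Csrp1 (12.99) and Pdlim7 (11.43). Excess replicate 6 of day 7 was the lowest for Acta2 (13.58) and Pdlim7 (10.92). Excess replicate 4 of day 7 was the lowest for Myh11 (5.08) and the highest for Tagln (14.07). Single arrays at day 14 stood apart for Myh11 (excess replicate 6, 6.27, lowest), Cnn1 (sufficient replicate 2, 11.04, lowest) and Mylk (deficient replicate 5, 11.47, highest).

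The excess effect differed between days by the interaction test of limma. From day 7 to day 14 it changed by -0.32 for Tagln, -0.71 for Des and -0.59 for Csrp1. From day 7 to day 21 it changed by -0.81 for Myh11, -0.63 for Cnn1, -0.74 for Mylk, -0.34 for Tagln and -0.58 for Csrp1.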

How the results depend on the processing

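Counts below are contractile genes past the threshold, of 10, and the share of all genes called in each setting is not given beside them. For excess against sufficient medium at day 21, Mylk, Myh11, Cnn1, Tagln, Des and Csrp1 kept direction and call in all 17 settings that could be fitted and in all 10 leave-one-out fits. The excess count of day 7 (1) became 2 with a stricter filter, array weights, a variance trend, the running number as covariate or the spike-in class as block. It became 0 with only the groups compared and without arrays above a beta-actin difference of 2. Leaving out single arrays gave 0 (without excess replicate 1) to 2 (without sufficient replicate 6). Deficient against excess medium at day 7 (3) gave 1 with quantile normalization or the replicate block, 0 with median centring or only the groups compared, and 0 to 3 without single arrays. The replicate block kept excess against sufficient at 7 on days 14 and 21 and moved no other count by over 1.5 times.

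Leaving out arrays above a beta-actin ratio of 3 left 0 to 2 arrays a group, so comparisons with day 7 deficient or day 21 excess arrays could not be fitted. It left 1 array in 5 groups (day 7 sufficient and excess, day 14 deficient and excess, day 21 sufficient), each assumed to vary like the other groups, so its values say little. Counts of calls that rest on a group of 1 array are not given. Among arrays with the higher control, both day 14 comparisons with excess gave 3. The excess effect from day 7 to day 14 (3) became 6 with array weights or among arrays with the lower control, and 3 to 6 without single arrays (6 without day 7 excess replicate 6, 5 without day 14 sufficient replicate 4). Time in deficient medium (9) gave 5 with the poly-A covariate, and time in excess medium (8) gave 5 without arrays above a beta-actin difference of 2.

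Of reversals where the value passed in either fit, day 14 held Acta2, for excess against sufficient (0.12 with the ratio of 3, 0.022 with the higher control) and for deficient against excess (-0.20 and -0.091). Smtn at day 14 also changed sign, with neither value past the threshold. The poly-A covariate reversed time effects of Acta2 (0.19 deficient, 0.10 excess), Smtn (0.67 deficient, 0.69 sufficient, 0.90 excess), Pdlim7 (0.19 deficient, 0.13 sufficient) and Csrp1 (0.30 excess). The spike-in class block reversed Smtn (0.11 deficient, 0.48 sufficient), and the ratio of 3, which sets day 21 replicate 1 against day 7 replicate 6 here, both far from their groups, turned sufficient time effects of Acta2 (0.72), Smtn (1.70) and Pdlim7 (0.65). The cause of these changes was not tested.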
